A study of Homo sapiens with 9 samples.

Results

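The EMP and PMP22 family holds the epithelial membrane proteins EMP1, EMP2 and EMP3 and the peripheral myelin protein PMP22. All 4 were taken by gene symbol from the table of counts per gene, which lists 58051 genes, and all 4 were among the 14513 genes with enough counts to be tested. RNA was measured in A431 cells, a line from an epidermoid carcinoma that carries endogenous mutant p53. The 3 groups were A431 parental (mutp53) cells, which were not edited, A431 Ctrl (mutp53) cells, which had received the empty vector, and A431 p53 KO cells, made with a GFP CRISPR construct against p53. Each group had 3 libraries. Per the labels, cells of all groups started as single colonies and were kept at 37 degrees in DMEM supplemented with FBS (10%), under 5% CO2, and harvested 48 hours after settling in 6-well plates. The study compared the groups to find genes whose RNA follows mutant p53. The labels do not say how many colonies stand behind a group, or whether replicates were separate cultures. Every p-value therefore measures the spread between these libraries, which may be technical, and a difference between single colonies cannot be told apart from an effect of the edit.

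Members of this family are small proteins that cross the plasma membrane several times, with both ends inside the cell, and they belong to the same superfamily as the claudins. They act as membrane adaptors: EMP2 binds integrins and affects which receptors reach the surface, and EMP1 and EMP3 have been linked to adhesion, migration and growth factor signalling in tumours. PMP22 is a main component of compact myelin in Schwann cells, where a change in its gene dose causes inherited neuropathy, but it is also found at low level in epithelia. In stratified epithelium, EMP1 rises with differentiation, and the distant relative PERP holds desmosomes together.

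The 4 genes lie on separate chromosomes. In GRCh38, EMP1 (ENSG00000134531) spans chr12:13196723-13219941 on the plus strand, EMP2 (ENSG00000213853) chr16:10528422-10580632 on the minus strand, EMP3 (ENSG00000142227) chr19:48321509-48330553 on the plus strand and PMP22 (ENSG00000109099) chr17:15229773-15272292 on the minus strand. The MANE Select transcript, the reference transcript of a gene, had 5 exons in each. The coding parts were alike in length, from 471 bases in EMP1 to 501 in EMP2, which corresponds to 157 and 167 residues. The rest of the transcripts differed far more. EMP1 carried 5442 untranslated bases and EMP2 carried 4596, against 1348 in PMP22 and 160 in EMP3. Between coding sequences, identity was highest for EMP1 and EMP2 at 67.5% and lowest for EMP1 and PMP22 at 58.8%. No other annotated gene shared a run of 75 bases, the read length, with any transcript of a member. EMP3 shares 294 exon bases with ODAD1 on the opposite strand, but ODAD1 had at most 12 counts in any library.

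The promoters of the 4 genes are shown so that the upstream sequences of members with unlike levels can be compared. The stretches come from RefSeq (GRCh38.p14). They hold the bases within the 250 before the start of the MANE Select transcript that lie outside annotated exons, read 5′ to 3′ on the gene's own strand. Capitals mark matches to the searched motifs on either strand, named after the sequences. The stretches are chr12:13196476-13196722 (plus) for EMP1, chr16:10580633-10580848 (minus) for EMP2, chr19:48325302-48325346 (plus) for EMP3 and chr17:15265327-15265455 (minus) for PMP22.
EMP1: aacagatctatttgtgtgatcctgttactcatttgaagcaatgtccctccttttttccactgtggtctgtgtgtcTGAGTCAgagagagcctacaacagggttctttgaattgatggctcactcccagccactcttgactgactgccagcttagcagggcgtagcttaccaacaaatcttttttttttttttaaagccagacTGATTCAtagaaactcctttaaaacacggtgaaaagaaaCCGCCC
EMP2: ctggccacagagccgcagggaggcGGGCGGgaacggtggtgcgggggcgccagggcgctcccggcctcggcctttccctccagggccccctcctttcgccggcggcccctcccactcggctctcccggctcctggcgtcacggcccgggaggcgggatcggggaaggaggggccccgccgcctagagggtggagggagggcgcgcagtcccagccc
EMP3: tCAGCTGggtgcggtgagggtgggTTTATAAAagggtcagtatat
PMP22: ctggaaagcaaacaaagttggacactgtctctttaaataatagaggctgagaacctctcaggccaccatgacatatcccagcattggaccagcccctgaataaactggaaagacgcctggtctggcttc

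Base composition at the MANE Select start set EMP2 apart from the others. Over the full 250 bases, its GC content was 77.2% with 27 CpG dinucleotides, against 59.2% and 9 for EMP3, 48.8% and 1 for PMP22 and 42.4% and 3 for EMP1. The median over 34788 promoter windows of the same length was 58.0% and 11. The contrast with PMP22 depends on the start chosen. Windows at other start sites of PMP22, which lay wholly or mostly in its annotated exons, had 61.2% with 15 and 69.6% with 26. In the MANE Select windows, EMP1 held the AP-1 motif TGANTCA at 2 places, a motif found in 6.59% of all windows. The Sp1 motif GGGCGG, found in 42.6% of windows, was in EMP1, EMP2 and EMP3. EMP3 also held CAGCTG, found in 14.0% of windows, and TATAAA, found in 10.8%, whose matches on both strands overlap in the longer run of capitals. These TATAAA matches lie 226 and 224 bases before the start. Of the 250 bases in this EMP3 window, 205 lie in its own annotated exons. The window at another EMP3 start site, with 59.2% GC and 4 CpG, held none of the 6 motifs searched. At its MANE Select start, PMP22 held none of the 6 motifs searched, but the windows at its other start sites each held GGGCGG. The TEAD motif GGAATG, found in 11.9% of windows, and the p53 response element decamer, found in 5.59%, were in no member's window. Such matches describe letters only, and an absent match says only that these letters are not in this window.

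Library totals were between 19783778 and 29840452 counts. Replicates of every group differed by more than counting noise, and Ctrl replicate 1 stood apart from the other Ctrl libraries, with a chi-square per degree of freedom of 39.4 and 51.8 against them and of 5.35 to 16.5 in all other replicate pairs. Keratinocyte markers were present, with a summed level of 15300 to 18200 CPM (counts scaled to the TMM-adjusted library size) in parental, 9750 to 12100 in Ctrl and 14100 to 14800 in p53 KO libraries, nearly all of it EGFR, while KRT14 had at most 13 counts. Summed fibroblast, leukocyte and endothelial markers reached at most 4.42, 2.68 and 1.16 CPM, and PTPRC, CD3E, COL3A1, DCN and LUM had no count. The Schwann cell list summed to 35.7 to 51.4 CPM, nearly all of it MBP, with SOX10 and S100B at 0 in every library.

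The family divided by level into an abundant pair, EMP1 and EMP2, an intermediate member, EMP3, and a scarce one, PMP22. In parental cells, EMP1 was at 266 ± 11.9 CPM (SD, n = 3), EMP2 at 215 ± 2.29, EMP3 at 12.8 ± 1.03 and PMP22 at 0.532 ± 0.162. A long transcript gives more reads per molecule, so levels of different genes were compared as CPM per kb of the MANE Select transcript. On that scale, parental cells held 44.9 ± 2.01 CPM per kb of EMP1, 42.3 ± 0.450 of EMP2, 19.8 ± 1.58 of EMP3 and 0.291 ± 0.0885 of PMP22. EMP1 and EMP2 were thus close neighbours. Their libraries overlapped in Ctrl, where EMP1 was at 57.6 ± 3.85 and EMP2 at 55.7 ± 3.49 CPM per kb, and in p53 KO, where they were at 45.9 ± 3.81 and 45.1 ± 1.23. In parental libraries they did not overlap, with EMP1 from 43.4 and EMP2 up to 42.7 CPM per kb. EMP3 reached 39.5 ± 2.46 CPM per kb in p53 KO cells, with its highest library at 41.9 just under the lowest EMP1 library at 42.0, and it fell to 5.34 ± 2.07 in Ctrl cells. PMP22 was last in every library, at no more than 0.707 CPM per kb.

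**Figure D1:**
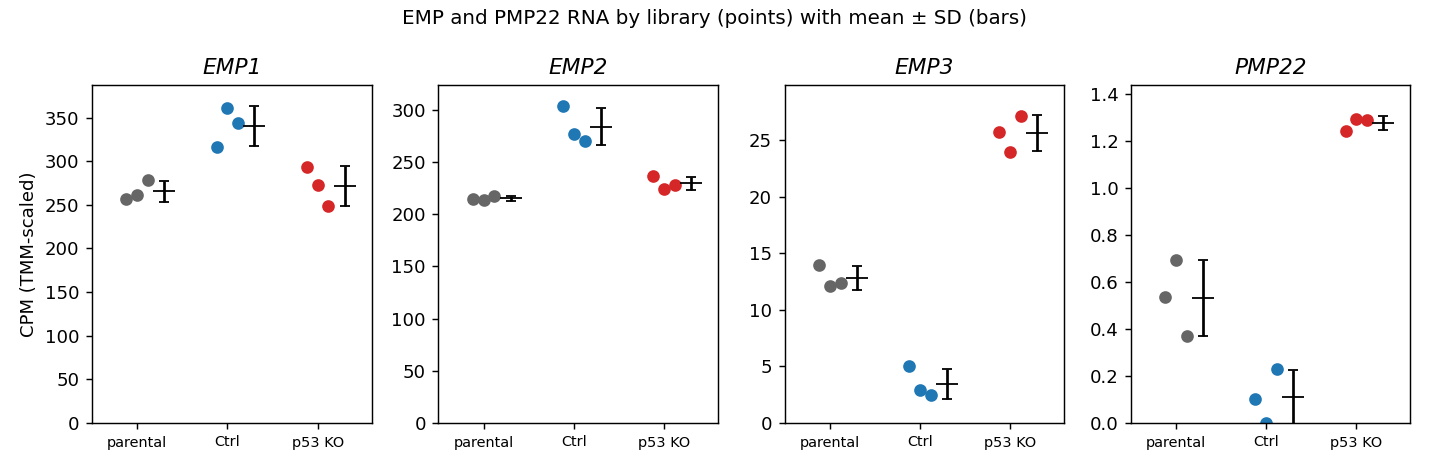
CPM (TMM-scaled, linear axes from 0) of EMP1, EMP2, EMP3 and PMP22 in each library of parental, Ctrl and p53 KO cells. Points are libraries, and the bars beside them give the mean ± SD of 3 (the lower end of the PMP22 bar in Ctrl runs below the axis). EMP1 and EMP2 are highest in Ctrl, while EMP3 and PMP22 are lowest in Ctrl and highest in p53 KO.

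EMP1, whose RNA rises in differentiating keratinocytes, and EMP2, the integrin-binding member, were both higher in Ctrl cells than in parental or p53 KO cells. EMP1 was at 257, 261 and 279 CPM in the parental libraries, at 317, 362 and 344 in Ctrl and at 293, 273 and 248 in p53 KO. All 3 Ctrl libraries lay above all other libraries, and parental and p53 KO overlapped. EMP1 rose 1.28-fold in Ctrl over parental cells, a log2 fold change of 0.36 ± 0.0801 (SE, adjusted p = 0.0112, edgeR's quasi-likelihood test, Benjamini-Hochberg adjusted). In p53 KO it was at 79.7% of the Ctrl level, a log2 fold change of -0.33 ± 0.0801 (adjusted p = 0.0103, same test). Between p53 KO and parental cells the log2 difference was 0.03, with a 95% interval of -0.12 to 0.19, and it did not pass the test (adjusted p = 0.816, edgeR). This interval lies below the estimate of 0.36 for Ctrl over parental. That estimate has its own 95% interval of 0.20 to 0.52. Both intervals use the normal distribution and are narrower than the test's few degrees of freedom would give, so they may overlap.

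EMP2 gave the same order with less spread. It was at 215, 213 and 218 CPM in parental, 304, 277 and 270 in Ctrl and 237, 224 and 228 in p53 KO libraries. The groups did not overlap, with parental lowest and Ctrl highest. EMP2 rose 1.32-fold in Ctrl over parental cells (log2 fold change 0.40 ± 0.0651, adjusted p = 0.00199, edgeR). It was at 80.9% of the Ctrl level in p53 KO cells (log2 fold change -0.31 ± 0.0651, adjusted p = 0.00466, edgeR). Against parental cells, the difference in p53 KO was 0.09 on the log2 scale, with a 95% interval of -0.03 to 0.22, and did not pass (adjusted p = 0.361, edgeR). The highest EMP2 level was in Ctrl replicate 1, the library that stood apart. Without it, the log2 fold change of EMP2 was 0.35 in Ctrl over parental and -0.25 in p53 KO against Ctrl, and both still passed.

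EMP3 had the widest range of the abundant and intermediate members. It was among the genes that the study itself picked from these libraries, so its direction here is not independent evidence. EMP3 had 366, 314 and 269 counts in the parental libraries, 98, 83 and 65 in Ctrl and 767, 631 and 548 in p53 KO. These are 14.0, 12.1 and 12.4 CPM in parental, 5.00, 2.92 and 2.48 in Ctrl and 25.7, 24.0 and 27.2 in p53 KO. The 3 groups were fully separate, with Ctrl lowest, parental between and p53 KO highest. The summed keratinocyte markers were also lowest in Ctrl, which was so through EGFR. Without EGFR the sum was 907 to 921 CPM in parental and 1060 to 1080 in both Ctrl and p53 KO libraries. Single markers went both ways in Ctrl over parental. KRT5 rose (log2 fold change 0.45 ± 0.0808, adjusted p = 0.00351, edgeR). KRT17 and KRT6A fell (-0.63 ± 0.121 and -0.40 ± 0.0984, adjusted p = 0.00502 and 0.0171, edgeR), and CDH1, DSG3 and TP63 did not pass. Over parental cells, EMP3 was 2.0-fold higher in p53 KO, with a log2 fold change of 1.00 ± 0.167 (adjusted p = 0.00201, edgeR). In Ctrl, by contrast, EMP3 was at 27.0% of the parental level (log2 fold change -1.93 ± 0.196, adjusted p = 9.93e-05, edgeR). The difference between p53 KO and Ctrl, 7.40-fold, was therefore the largest of the comparisons for EMP3 (log2 fold change 2.92 ± 0.192, adjusted p = 1.81e-06, edgeR). Without Ctrl replicate 1, whose EMP3 level was the highest of the Ctrl libraries, it was 3.24 on the log2 scale. All comparisons of EMP3 passed the test with each library left out in turn, between 2.73 and 3.24 for p53 KO against Ctrl.

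PMP22, the myelin protein, was close to the limit of detection and is best read in counts. It passed the filter through the p53 KO libraries, where it was highest, so its entry into the tests depends on that group. In a fit to Ctrl and parental libraries alone, it fell below the filter and was not tested. The parental libraries held 14, 18 and 8 PMP22 counts, Ctrl held 2, 0 and 6, and p53 KO held 37, 34 and 26. On counting error alone, the 95% Poisson interval of the 0 in Ctrl replicate 2 reaches up to 3.69 counts, or 0.13 CPM. The lowest p53 KO count of 26 has a 95% Poisson interval of 17.0 to 38.1, above that of the Ctrl count of 6, which runs from 2.20 to 13.1. Like EMP3, PMP22 was lowest in all Ctrl libraries and highest in all p53 KO libraries, without overlap in CPM. Its mean was 0.532 ± 0.162 CPM in parental cells, 0.110 ± 0.115 in Ctrl and 1.28 ± 0.0291 in p53 KO. The fold between means was 2.39 for p53 KO over parental and 11.6 for p53 KO over Ctrl, and Ctrl was at 20.7% of parental. The fitted log2 fold changes were 1.23 ± 0.358 over parental in p53 KO, 3.50 ± 0.496 in p53 KO over Ctrl and -2.27 ± 0.586 over parental in Ctrl (adjusted p = 0.0365, 0.00035 and 0.0216, edgeR's quasi-likelihood test, Benjamini-Hochberg adjusted). The rise over parental cells did not pass (adjusted p up to 0.133, edgeR) when any of the parental or p53 KO libraries was left out. The fall in Ctrl did not pass without parental replicate 1 (adjusted p = 0.0655, edgeR) or parental replicate 2 (adjusted p = 0.0797). With the replicate number as a block, PMP22 had an adjusted p of 0.0897 against parental in p53 KO and 0.0570 in Ctrl (edgeR). The size of the fall of PMP22 in Ctrl rests on few counts, and its log2 fold change was -1.61 without Ctrl replicate 2 and -3.54 without Ctrl replicate 3. The difference between p53 KO and Ctrl passed with every library left out, between 2.83 and 4.76 on the log2 scale.

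**Figure D2:**
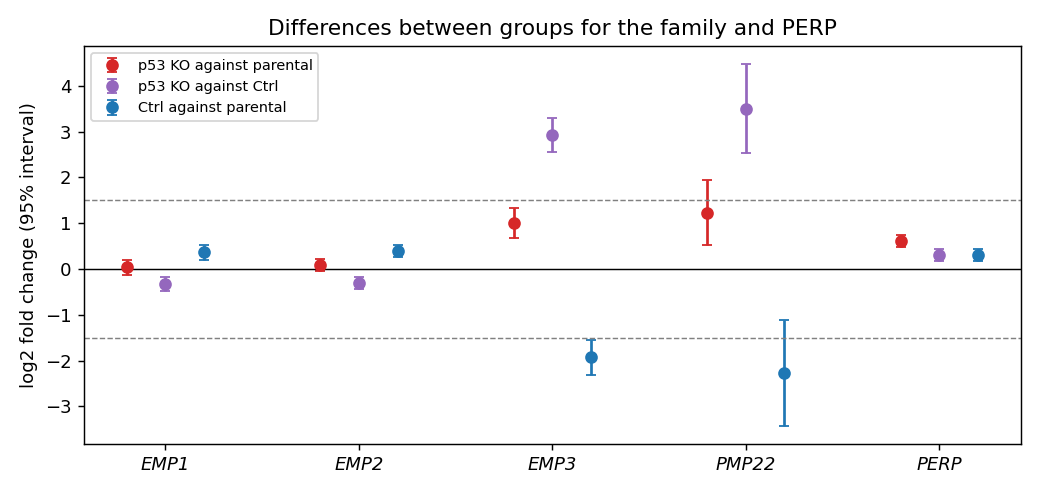
Log2 fold changes with 95% intervals (points and bars, from edgeR's fit to all 9 libraries, intervals by the normal distribution) for the family and PERP. Dashed lines mark log2 fold changes of 1.5 and -1.5. EMP3 and PMP22 pass the upper line in p53 KO against Ctrl and the lower line in Ctrl against parental, while EMP1, EMP2 and PERP stay between the lines.

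Set against all genes tested, p53 KO against parental cells gave 2 members higher (EMP3 and PMP22), 0 lower and 2 not passing at an adjusted p of at most 0.05, which 18.1% of genes passed, 9.77% as higher and 8.36% as lower. At the study's stricter thresholds, which also ask for a log2 fold change above 1.5 or below -1.5, 0 of 4 members were called, against 1.95% of genes. Against Ctrl, all 4 members passed in p53 KO, where 29.2% of genes passed. EMP3 and PMP22 were higher, as were 2172 of 14513 genes, and EMP1 and EMP2 were lower, as were 2068 genes or 14.2%. The stricter thresholds called 3.29% of genes there, 2.18% as higher, and 2 members, EMP3 and PMP22, both higher. In Ctrl against parental cells, all 4 passed again, where 20.3% of genes passed. In both comparisons with Ctrl, PMP22 was among the genes tested through the p53 KO libraries, where it was highest. Fitted to Ctrl and parental libraries alone, it fell below the filter. EMP1 and EMP2 were higher, as were 10.6% of genes, and EMP3 and PMP22 were lower, as were 9.69%. The stricter thresholds called 1.94% of genes, 1.27% as lower, and again 2 members, EMP3 and PMP22, both lower. Without any test, CPM values did not overlap between Ctrl and parental for 4 members and 43.9% of genes, between p53 KO and Ctrl for 4 members and 40.4% of genes, and between p53 KO and parental for 3 members, all but EMP1, and 47.4% of genes. These comparisons share libraries, so a gene that is low in Ctrl enters both comparisons with Ctrl. Of all genes tested, 4.40% had CPM values that separated the groups without overlap in the order Ctrl, parental, p53 KO, as EMP3 and PMP22 did. The median log2 fold change of the 4 members was 0.54 for p53 KO over parental, 1.31 for p53 KO over Ctrl and -0.78 for Ctrl over parental, and the median of all genes was 0.01, 0.01 and 0.00. Each median of the members falls in the gap between EMP1 and EMP2 and the other pair, EMP3 and PMP22. No member lies near it, so it is not a shift of the whole family.

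The opposite movements changed the make-up of the family's RNA. The share of each member was taken of the summed CPM per kb of all 4. In parental cells, EMP1 made up 41.9 ± 1.41% (SD, n = 3), EMP2 39.4 ± 0.393%, EMP3 18.4 ± 1.43% and PMP22 0.273 ± 0.088%. In Ctrl cells, EMP1 and EMP2 together took nearly the whole, at 48.6 ± 3.74% and 46.9 ± 2.13%, and EMP3 held 4.48 ± 1.65%. In p53 KO cells the 3 EMP genes came close to equal parts on this length scale, at 35.0 ± 2.18% for EMP1, 34.3 ± 0.279% for EMP2 and 30.1 ± 1.97% for EMP3, and PMP22 held 0.532 ± 0.03%. The share of EMP3 did not overlap between groups, from 3.32 to 6.37% in Ctrl, 17.5 to 20.1% in parental and 28.9 to 32.4% in p53 KO libraries. The family summed to 107 ± 2.14 CPM per kb in parental cells, to 119 ± 3.14 in Ctrl and to 131 ± 4.54 in p53 KO. These shares depend on the length chosen for each gene. With the length of all annotated exons, EMP3 held 11.7%, 2.68% and 20.3% in parental, Ctrl and p53 KO cells, in the same order of groups. EMP1 then held 45.0% and EMP2 34.5% in p53 KO cells, so the near equality of the 3 EMP genes was lost. The sum was 66.7, 78.4 and 76.9 CPM per kb, so that p53 KO no longer exceeded Ctrl.

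**Figure D3:**
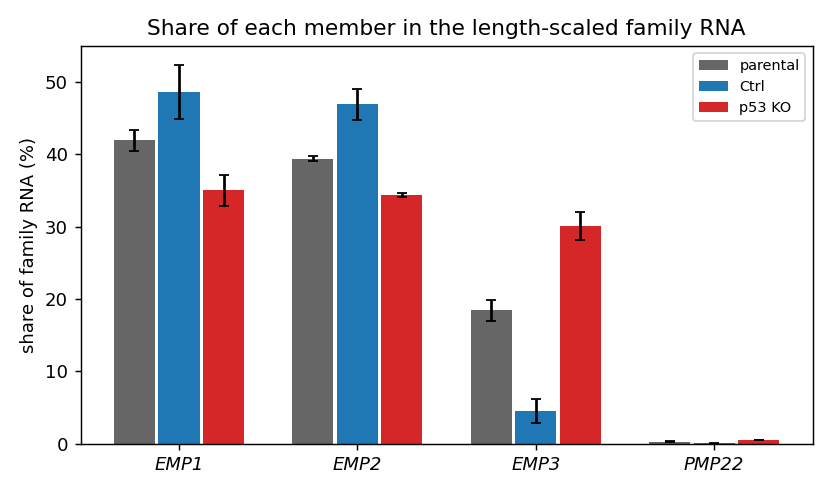
Share of each member in the summed length-scaled RNA (CPM per kb of the MANE Select transcript) of the family, in percent, as the mean (bars) and SD (lines) of 3 libraries per group. EMP3 makes up 4.48% in Ctrl, 18.4% in parental and 30.1% in p53 KO cells.

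PERP, a relative of the family and a known target of p53 and p63 that sits in desmosomes, moved differently from the EMP and PMP22 genes. It was at 195, 195 and 209 CPM in parental, 259, 250 and 230 in Ctrl and 312, 301 and 299 in p53 KO libraries. The groups did not overlap, and p53 KO was highest. On the log2 scale, PERP rose in p53 KO by 0.61 ± 0.0678 over parental cells and by 0.30 ± 0.0676 over Ctrl, and in Ctrl over parental by 0.30 ± 0.0677 (adjusted p = 0.000196, 0.00603 and 0.0113, edgeR's quasi-likelihood test, Benjamini-Hochberg adjusted). Below, 3 values in a row stand for p53 KO over parental, p53 KO over Ctrl and Ctrl over parental, in that order. On the length scale, PERP in parental cells was at 47.5 ± 1.99 CPM per kb, beside EMP1 and EMP2. Of 19 relatives in the superfamily outside the claudins, 4 had enough counts to be tested. Against parental cells, p53 KO had 1 higher and 0 lower, and against Ctrl 1 higher and 1 lower. Ctrl against parental had 1 higher and 0 lower, and the medians were 0.26, -0.18 and 0.32. Of all genes tested, 18.1%, 29.2% and 20.3% passed in either direction, and 4 relatives are too few to set against these shares. The lower one was CLDND1, a claudin-like protein, with a log2 fold change of -0.42 ± 0.0861 in p53 KO against Ctrl (adjusted p = 0.00386, edgeR). TMEM47, a junction protein, and NKG7, of cytotoxic lymphocytes, had 0 counts in all 9 libraries.

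Proteins reported to bind or act with the family were present with few exceptions. Of 19 such partners, 17 were tested. In p53 KO, 1 was higher and 6 were lower than in parental cells, and 3 were higher and 4 lower than in Ctrl. In Ctrl against parental, 1 was higher and 3 were lower, the medians were -0.24, -0.06 and -0.14, and 0 were called at the stricter thresholds. The shares of partners passing in either direction were 41.2%, 41.2% and 23.5%, against 18.1%, 29.2% and 20.3% of all genes. EGFR, the growth factor receptor that A431 cells overproduce, had a log2 fold change of -0.65 ± 0.0989 in Ctrl against parental and 0.42 ± 0.0987 in p53 KO against Ctrl (adjusted p = 0.00128 and 0.00846, edgeR). Among integrins, ITGB4 of the hemidesmosome rose in p53 KO by 0.22 ± 0.0641 over parental and 0.31 ± 0.0641 over Ctrl on the log2 scale (adjusted p = 0.0372 and 0.00425, edgeR). ITGB1, the most widely shared beta subunit, fell in p53 KO by 0.75 against parental and by 0.61 against Ctrl (adjusted p = 0.00112 and 0.00197, edgeR), and ITGAV, an alpha subunit, fell by 0.87 against parental (adjusted p = 0.0497). Both were added after their values were seen. The partner of ITGB4, ITGA6, did not pass in any comparison (log2 fold changes of 0.02, 0.24 and -0.22). ITGB3, a subunit of an integrin that EMP2 binds, had 0 counts in all 9 libraries.

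CAV1, the coat protein of caveolae, whose level EMP2 affects in other cells, fell in p53 KO by 0.45 on the log2 scale against parental and by 0.57 against Ctrl (adjusted p = 0.00254 and 0.000284, edgeR). In Ctrl against parental, the CAV1 difference of 0.12 did not pass (adjusted p = 0.265). CD44, the hyaluronan receptor, was lower than parental both in p53 KO (-0.33, adjusted p = 0.0231, edgeR) and in Ctrl (-0.31, adjusted p = 0.0272), and the difference between those was -0.01 (adjusted p = 0.931). TGFBR2, a TGF-beta receptor linked to EMP3, had log2 fold changes of -0.02, 0.16 and -0.18, of which none passed. P2RX7, the ATP-gated channel that EMP proteins bind, had at most 2 counts in any library.

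The tetraspanins are an unrelated family of proteins with the same number of membrane passes and served as a comparison. Of 33 listed, 20 were tested. In p53 KO, 4 were higher and 1 was lower than in parental cells, and 3 were higher and 5 lower than in Ctrl. Ctrl cells had 11 higher and 1 lower than parental, with a median log2 fold change of 0.29 against 0.00 for all genes; the medians of the p53 KO comparisons were 0.14 and -0.15. CD9, a tetraspanin of integrin complexes, was 0.57 ± 0.115 higher in Ctrl than in parental cells and -0.63 ± 0.115 in p53 KO against Ctrl on the log2 scale (adjusted p = 0.00669 and 0.00191, edgeR). CD151, which binds laminin receptors, was 0.39 higher in Ctrl and -0.34 in p53 KO against Ctrl (adjusted p = 0.0404 and 0.0497, edgeR). CD82 was 0.49 higher in Ctrl than in parental cells (adjusted p = 0.0167, edgeR) and -0.33 in p53 KO against Ctrl (adjusted p = 0.0593). CD63 of lysosomes and CD81 did not pass in any comparison, with values of 0.30 and 0.26 in Ctrl against parental. At the stricter thresholds, UPK1B, a urothelial plaque protein, was called in both comparisons with Ctrl, on 10 to 18 counts in Ctrl, 4 to 6 in parental and 2 to 4 in p53 KO libraries.

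Of 10 transcription factors that act on these genes in other cells, 8 were tested. Against parental cells, 0 of them passed in p53 KO by edgeR (0 at an unadjusted p under 0.05). Against Ctrl 1 was lower, TEAD3, at a log2 fold change of -0.35 (adjusted p = 0.00585, edgeR). In Ctrl against parental, 1 was higher and 1 was lower, and the medians were -0.10, -0.04 and -0.13. Among all genes, 18.1%, 29.2% and 20.3% passed in either direction. SOX10, which drives PMP22 in Schwann cells, had 0 counts in all 9 libraries, and EGR2, its partner there, had 3 to 18 counts. TEAD1 and YAP1, of the Hippo pathway, did not pass in any comparison, with log2 fold changes of -0.47 and -0.30 in p53 KO against parental. TP63, the p53 relative of basal epithelium, had log2 fold changes of 0.13, 0.21 and -0.07, of which none passed.

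Other genes followed the members' profiles closely over the 9 libraries. As a description, the genes with the highest Pearson correlation of log2 CPM were taken among 10549 genes with a mean log2 CPM above 2. All share libraries, groups and scaling. EMP1 was most like PARP9 (r = 0.986), NRG4 (0.983) and ALDH3A2 (0.971), and EMP2 was most like EFNA1 (0.995), ELF3 (0.992) and DHRS3 (0.988), all of which had their highest mean in Ctrl. EMP3 was most like USP11 (r = 0.995), OTUD5 (0.994) and UBA1 (0.992), which lie on chromosome X and had log2 fold changes of 1.10, 1.10 and 1.00 in p53 KO against Ctrl. PMP22 was most like SETDB1 (r = 0.986), HSPA9 (0.968) and DDX31 (0.967), whose differences between p53 KO and Ctrl, 0.32, 0.25 and 0.20 on the log2 scale, were far smaller than that of PMP22. Within the family, r was 0.833 for EMP1 with EMP2, 0.901 for EMP3 with PMP22 and between -0.855 and -0.742 for the other pairs.

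Most genes around EMP3 and PMP22 differed far less between groups than the members did. Over the 20 nearest tested genes, 10 on each side, the median log2 fold change in p53 KO against Ctrl was -0.08 around EMP3 and 0.17 around PMP22, where the genes themselves were at 2.92 and 3.50. Around EMP3, 2 neighbours were higher and 2 lower at an adjusted p of at most 0.05 (edgeR), and 1 was called at the stricter thresholds. Around PMP22, 7 were higher and 0 lower, and 3 were called, all of them higher. Of all genes tested, 2172 of 14513 were higher, 14.2% were lower and 2.18% were called as higher. The 3 called were GAS7, MEIS3P1 and CTD-3157E16.2. Unlike PMP22, MEIS3P1 and CTD-3157E16.2 did not pass between p53 KO and parental cells (0.03 and -0.002). Around EMP1 the median was -0.33, the same as EMP1 itself, with 6 neighbours lower and 2 higher. Around EMP2 the median was -0.10, with 5 lower and 3 higher. The nearest tested gene before EMP3 was ZNF114, a zinc finger gene 33901 bp away. ZNF114 had 559 to 836 counts in parental, 191 to 274 in Ctrl and 612 to 886 in p53 KO libraries. It was lower in Ctrl than in parental cells, as EMP3 was, at a log2 fold change of -1.62 ± 0.113, and higher in p53 KO than in Ctrl by 1.70 ± 0.113 (adjusted p = 8.4e-06 and 1.94e-06, edgeR). Unlike EMP3, ZNF114 did not pass between p53 KO and parental cells (0.08 ± 0.106, adjusted p = 0.659, edgeR). On the other side, TMEM143, 1803 bp from EMP3, did not pass in any comparison, with log2 fold changes of 0.14, -0.32 and 0.46. The nearest neighbours of EMP2, ATF7IP2 and NUBP1, and those of PMP22, RPS18P12 and TVP23C-CDRT4, did not pass either. Of the nearest genes of EMP1, FAM234B was lower in p53 KO than in parental cells (-0.39 ± 0.113, adjusted p = 0.0374, edgeR) and LINC01559 did not pass.

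**Figure D4:**
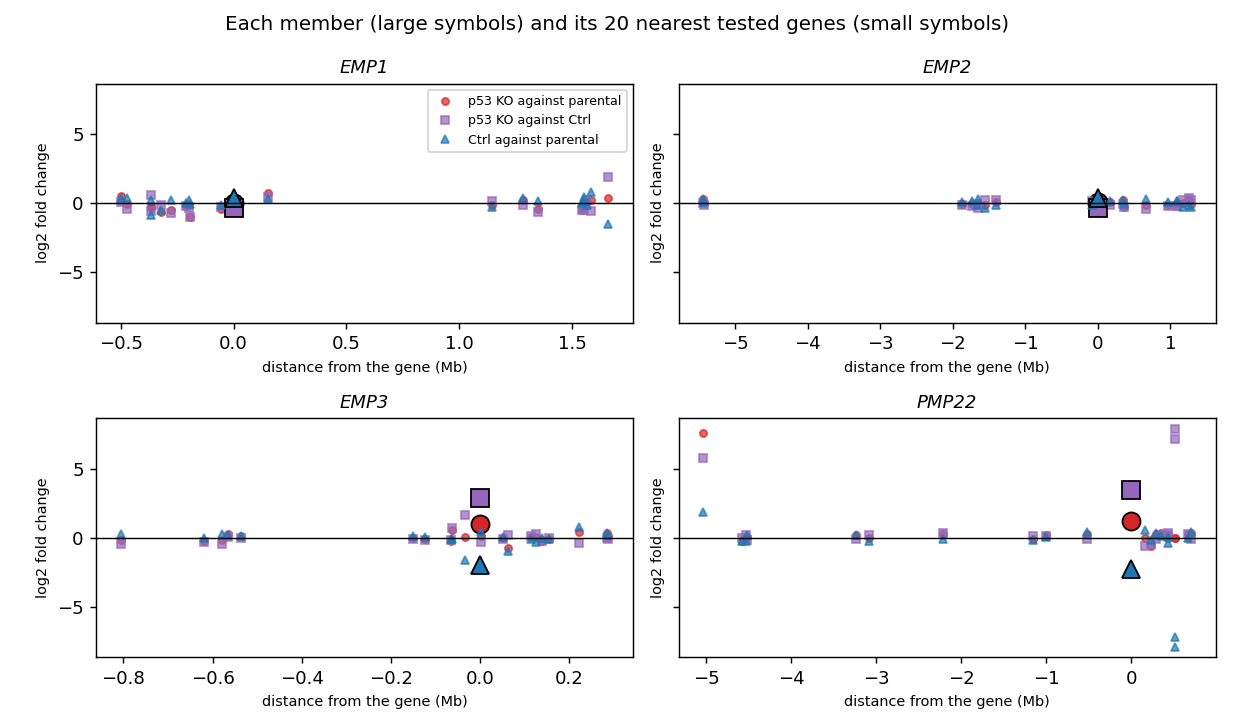
Log2 fold changes of each member (large symbols at distance 0) and of its 20 nearest tested genes (small symbols) against the distance from the gene in Mb, for the 3 comparisons. Medians of the neighbours in p53 KO against Ctrl are -0.33 around EMP1, -0.10 around EMP2, -0.08 around EMP3 and 0.17 around PMP22.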

How the data were processed

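According to the study, stranded poly(A) libraries were aligned with STAR 2.5.1b to GRCh38 and featureCounts gave counts per gene (Ensembl release 85), and the authors deposited raw counts without normalization. Whether the counting used the strand is not given in the sources used here. The counts were fitted in R 4.3.3 with edgeR 4.0.16 to all 9 libraries, after TMM scaling and a filter by group (filterByExpr, minimum count of 10), with 1 mean per group. The test was edgeR's quasi-likelihood test, with p-values adjusted after Benjamini and Hochberg over 14513 genes, and standard errors follow from the F statistic. The 95% intervals of log2 fold changes use these standard errors with the normal distribution. They are narrower than the test's few degrees of freedom would give. A gene was called at an adjusted p of at most 0.05 and a log2 fold change above 1.5 or below -1.5. Alternatives were DESeq2 1.42.0, its size factors, library totals without TMM, other filters, the replicate block, only the groups compared, a log2 fold change of at least 1, and each library left out. Replicate numbers did not pair the libraries (correlations of -0.348 to 0.0409). Exon lengths, positions and neighbours come from GENCODE release 44, where 14397 tested genes were found. The script was tested on simulated data. Named genes were all members, set genes of 4 lists with any other list gene called, the 3 most similar genes, and the nearest tested gene on each side. The check of the edited gene is not reported here. The members and lists were chosen with earlier results of these data known. Counts give counting error only.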

Additional observations from a re-analysis of the deposited data

Results flagged for a closer look

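EMP3 was higher in p53 KO and lower in Ctrl than in parental cells in every library, and its p53 KO and Ctrl levels differed by 2.92 on the log2 scale. PMP22 showed the same opposite directions in every library, with a difference of 3.50. In both genes the difference itself was tested (adjusted p = 1.81e-06 for EMP3 and 0.00035 for PMP22, edgeR's quasi-likelihood test, Benjamini-Hochberg adjusted). Both rest on the same parental libraries, and PMP22 entered the tests through its p53 KO libraries. Groups of 3 are too small to judge whether a single library is an outlier. With each library left out in turn, EMP3 passed in every comparison. PMP22 did not pass in 6 of 9 such fits for p53 KO against parental and in 2 of 9 for Ctrl against parental.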

How the results depend on the processing

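Of 188 recomputed log2 fold changes of members, 175 kept their direction and their side of the threshold and 13 did not, and of 150 recomputed counts 24 moved by over 1.5 times. EMP3 passed in every fit. The replicate block (the replicate number as a term in the fit) left 1 member passing in p53 KO against parental and 1 called in Ctrl against parental, in place of 2 each, because PMP22 no longer passed (log2 fold changes of 1.23 and -2.27); it took no other member past or below the threshold. With at least 10 counts in every library, PMP22 could not be tested, 1 member passed in p53 KO against parental, 1 was called in each comparison with Ctrl, and 71, 159 and 80 genes were called for p53 KO over parental, p53 KO over Ctrl and Ctrl over parental, in place of 283, 477 and 281. Fits to only the groups compared called 1 member in Ctrl against parental, since PMP22 fell below the filter. A log2 fold change of at least 1 called 1 member in p53 KO against parental, PMP22 at 1.23, and 527, 944 and 607 genes. EMP3, at 0.997 in that comparison, fell just short. Without a filter beyond 1 count, 724 genes were called in p53 KO against Ctrl. With each library left out in turn, 1 to 2 members passed in p53 KO against parental, 1 to 2 were called and 2 to 4 passed in Ctrl against parental, and 274 to 327, 494 to 559 and 256 to 350 genes were called. EMP1 in Ctrl against parental did not pass without parental replicate 1 or 2 (adjusted p = 0.0564 and 0.0566, edgeR), and its log2 fold change in p53 KO against parental was between -0.028 (without p53 KO replicate 1) and 0.0895 (without p53 KO replicate 3), passing in none. The cause was not tested. Shares by the length of all annotated exons, an alternative chosen after seeing the data, were 50.9%, 55.5% and 45.0% for EMP1 in parental, Ctrl and p53 KO cells. At 0 to 37 counts, depth limits what can be said of PMP22.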

Other observations

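Among the neighbours of the members, a few genes of low count differed between groups far more than the rest, and they are named here after their values were seen. GAS7, a growth arrest gene 5031167 bp from PMP22, had 0 counts in every parental library, 0 to 1 in Ctrl and 18 to 32 in p53 KO. On the other side of PMP22, 514326 bp away, the pseudogene MEIS3P1 had 24 to 35 counts in parental and 28 to 33 in p53 KO libraries and 0 in every Ctrl library. CTD-3157E16.2, 516724 bp from PMP22, likewise had 12 to 23 counts in parental, 9 to 27 in p53 KO and 0 in every Ctrl library. MGP, matrix Gla protein, an inhibitor of calcification 1660923 bp from EMP1, had 13 to 21 counts in parental, 3 to 11 in Ctrl and 23 to 28 in p53 KO libraries, with a log2 fold change of 1.89 ± 0.450 in p53 KO against Ctrl (adjusted p = 0.0086, edgeR). KRT6A, a keratin of activated keratinocytes read here as a marker, was higher in p53 KO than in parental cells by 2.35 ± 0.0955 and than in Ctrl by 2.75 ± 0.0979 on the log2 scale (adjusted p = 2.14e-07 and 2.39e-08, edgeR), and its part in the differences of the members was not tested.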
